A study of Rattus norvegicus with 33 samples.

Results

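The subsystems for the use of simple sugars and polyols were examined in shotgun DNA sequence of rat cecal content. A subsystem is a group of gene functions that together carry out 1 process, such as the uptake and breakdown of trehalose. The members were the subsystems whose name holds the word utilization, left after names with xylose, arabinose, fucose, chitin, lactate, propanediol, a vitamin and similar words of other pathways had been removed, and they numbered 44 of 1057 subsystems in the table. The removal took out 12 of the 56 subsystems named for utilization. The label of simple sugars and polyols did not hold for all members, because 27 of the 44 named a sugar, a polyol, a sugar acid or an unspecified carbohydrate and 17 named another substrate, such as heme, purines, putrescine or taurine. The samples were 10 female and 7 male spontaneously hypertensive rats (SHR), in which blood pressure climbs with age without any intervention, and 9 female and 7 male Wistar Kyoto rats (WKY), the strain with normal pressure from which SHR descend. All were 14 to 15 weeks old, no treatment is named for any group, and each library came from its own rat.

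Bacteria of the cecum live on the carbohydrates that escape digestion in the small intestine. They take up free sugars through permeases, ABC transporters or phosphotransferase systems, and lead them through an isomerase, kinase or aldolase into glycolysis or the pentose phosphate pathway. The enzymes that a bacterium carries for a given sugar differ between phyla, and many such gene clusters are held by Lactobacillaceae, Bifidobacterium, Enterobacteriaceae and Bacteroidales.

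Reads assigned to any function numbered 95952 to 395417 per SHR female library, 159285 to 389859 per SHR male library, 251346 to 489862 per WKY female library and 310753 to 426452 per WKY male library. SHR libraries were thus shallower, with 6 of 17 under 200000 function reads against 0 of 16 of WKY, and each strain result below was also computed without the 3 shallowest libraries and after thinning all libraries to the same depth. The values are normalized reads, the reads of a subsystem divided by a size factor of the library. Subsystems differ in the number and length of their genes and can share genes, so their levels are shares of reads and not gene copies, and neighbours such as the 2 lactose subsystems are not independent. In a mixed community, fewer bacteria with a gene and fewer copies per bacterium cannot be told apart. The labels name no cage, litter or sequencing batch and the rats of each strain carry their own run of numbers, so processing order and strain cannot be told apart, and rats that shared a cage would make the p-values too small.

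All 44 subsystems had at least 1 read and 30 were read in every rat. The 4 most abundant held 57.5% of the reads of the set and the 10 most abundant 80.9%. Maltose and Maltodextrin Utilization, which handles products of starch breakdown, led with 3416 ± 330.4 normalized reads (SD, n = 33). Lactose and Galactose Uptake and Utilization followed with 2011 ± 209, then D-Galacturonate and D-Glucuronate Utilization, for the sugar acids of pectin and of host glycans, with 1822 ± 507, and Lactose utilization with 1438 ± 294. At the other end 17 subsystems averaged under 10 normalized reads, of which 9 averaged under 1. The set therefore consisted of a few heavily read catabolic systems and a long tail that these libraries could hardly measure.

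**Figure D1:**
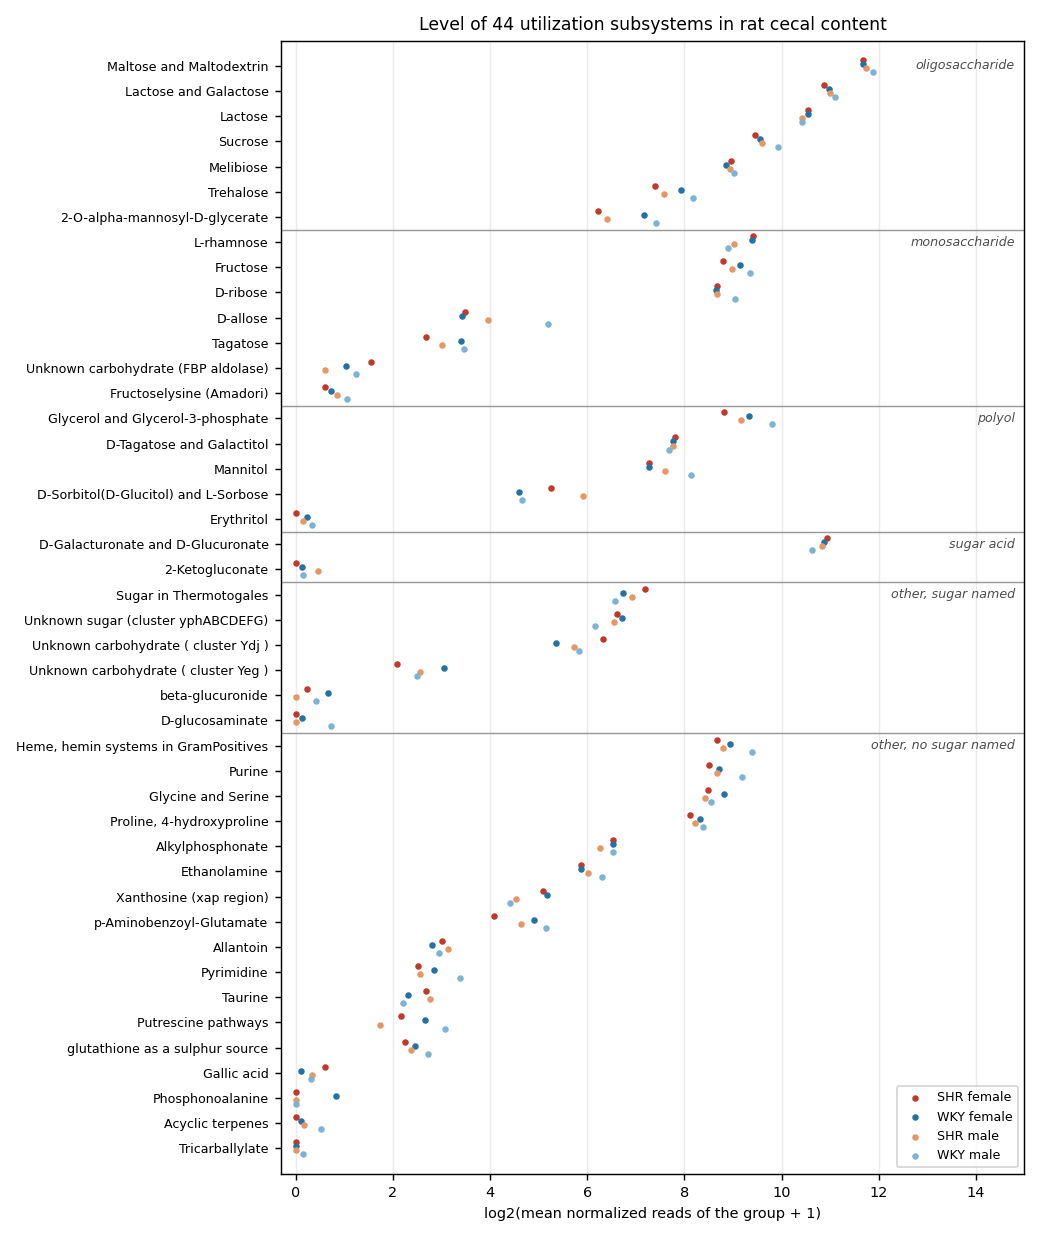
Mean level of each of the 44 subsystems in the 4 groups, as log2(mean normalized reads + 1), grouped by the substrate in the name. Maltose and Maltodextrin Utilization stands highest at 3272 in SHR females and 3294 in WKY females, and the lowest level is that of Tricarballylate Utilization, with 1 read in all.

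Together the 44 subsystems took 4.71% ± 0.334 of function reads in SHR females (SD, n = 10) and 4.95% ± 0.403 in WKY females (n = 9). In males they took 4.81% ± 0.167 in SHR and 5.40% ± 0.520 in WKY (SD, n = 7 each). The ranges overlapped in both sexes, from 3.99% to 5.16% in SHR females against 4.11% to 5.48% in WKY females and from 4.51% to 5.02% in SHR males against 4.81% to 6.12% in WKY males, and these summed shares were not tested. The 7 oligosaccharide subsystems, led by maltose, made up most of it, with 2.64% in SHR females and 2.75% in WKY females, and 2.75% in SHR males and 3.06% in WKY males. The 5 polyol subsystems took 0.284% ± 0.0259 in SHR females and 0.341% ± 0.104 in WKY females, and 0.343% ± 0.0709 in SHR males and 0.463% ± 0.174 in WKY males. WKY rats were more uneven in their polyol share than SHR rats, with single rats at 0.562% in WKY females and 0.713% in WKY males, against highest values of 0.329% in SHR females and 0.435% in SHR males.

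**Figure D2:**
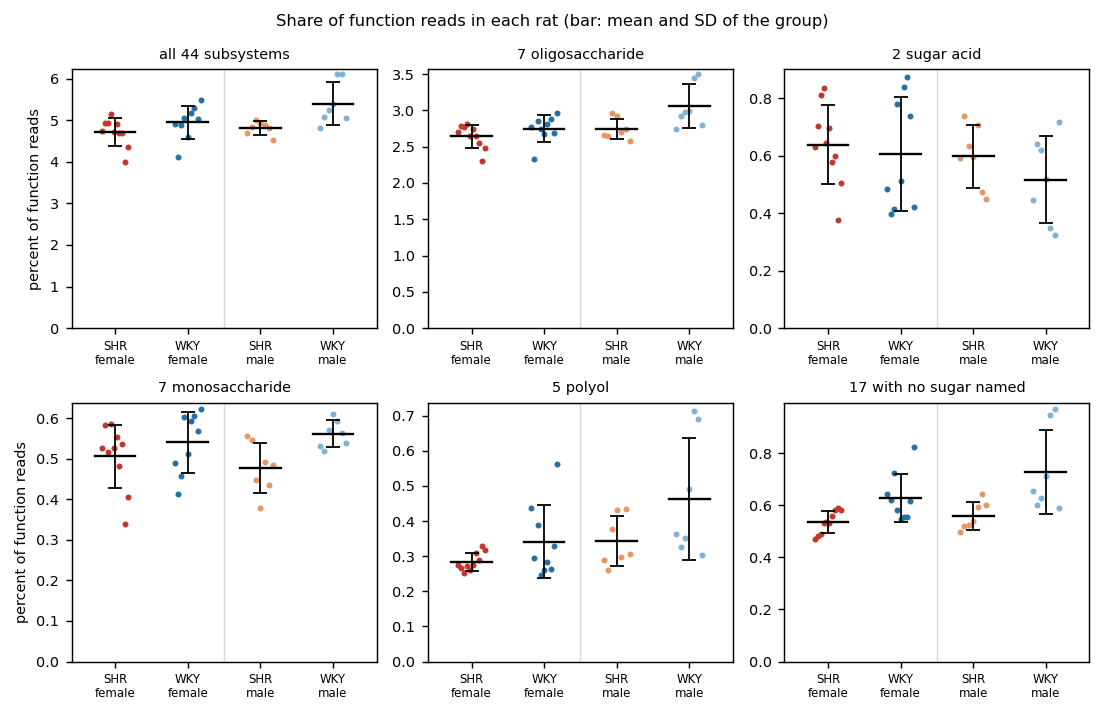
Share of function reads, in percent, held by all 44 subsystems and by 5 of the substrate groups in each rat, with points for rats and a bar for the group's mean and SD. The 4 groups overlap in every panel, and WKY males reach the highest shares for all subsystems (6.12%) and for polyols (0.713%).

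Averaged over the sexes, the cecal community of SHR carried fewer reads for 7 of the 44 systems, among them mannosylglycerate, trehalose, sucrose, fructose and glycerol, and more for 2, sorbitol and the sugar set of Thermotogales. Limma, a linear model fitted to log2(normalized reads + 1) across all 1057 subsystems, called 9 of 44 members at a Benjamini-Hochberg adjusted p under 0.05, against a background of 17.2% of all subsystems. Of these, 7 fell in SHR (background 10.5%) and 2 rose (background 6.72%). The share of members called, 20.5%, was thus near the background, and the median log2 fold change was -0.17 over the members and -0.02 over all subsystems. By substrate, 3 of 7 oligosaccharide, 1 of 7 monosaccharide and 1 of 5 polyol subsystems fell, and 1 polyol and 1 further sugar subsystem rose. Neither subsystem grouped as a sugar acid passed, and 2 of the 17 with no sugar in the name fell. The oligosaccharide count includes mannosylglycerate, whose name also holds a sugar acid, glycerate.

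Taken by sex, limma called 4 of 44 in females, all lower in SHR, where 8.42% of all subsystems were called, 4.73% lower and 3.69% higher. In males it called 2 of 44, both lower in SHR, where 2.46% of all subsystems were called, 1.8% lower and 0.662% higher. The median log2 fold change of the members was -0.09 in females and -0.19 in males, and that of all subsystems -0.04 in females and 0.00 in males. No member passed the test of whether the strain difference itself differed between the sexes (0 of 44 by limma, edgeR and DESeq2, background 0.0% by limma). At an unadjusted p under 0.05 limma gave 4 of 44 members and 82 of all 1057 subsystems. A call in 1 sex alone thus does not show a difference between the sexes. The counts within a sex moved with the libraries used. The share of all subsystems called was computed for the main fit only, so the following counts have no background beside them. In females limma called 1 member on thinned reads, mannosylglycerate alone, and 11 without the 3 shallowest libraries. In males the count lay between 1 and 8 when any 1 rat was left out, and it was 8 without WKY male 7.

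**Figure D3:**
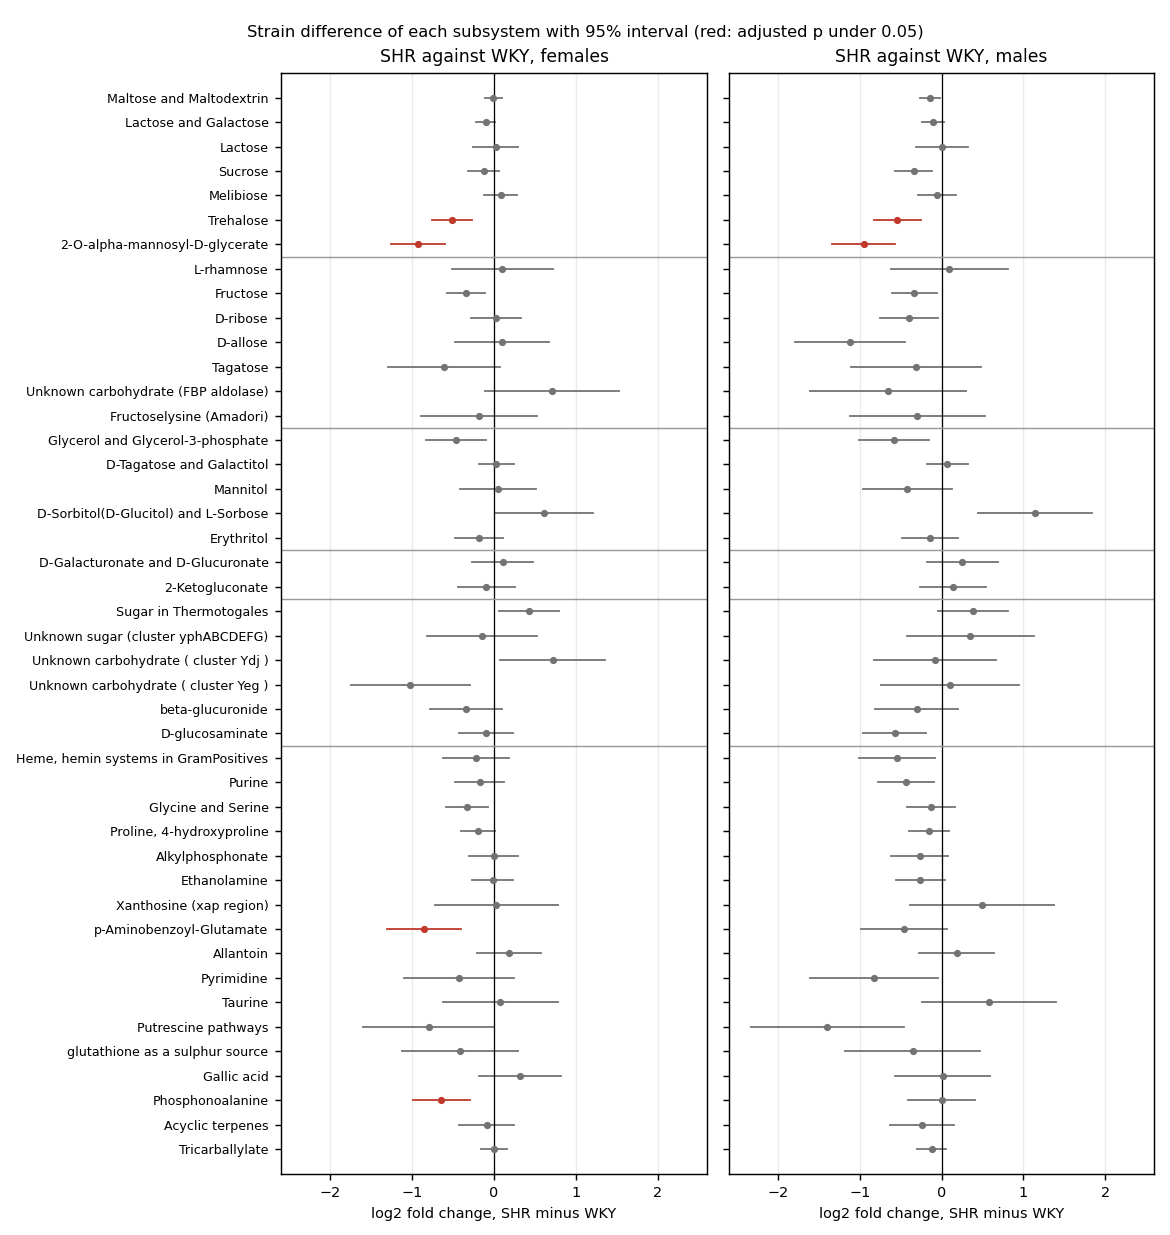
Log2 fold change of SHR minus WKY for each of the 44 subsystems in females (left) and males (right), with the 95% interval of the limma fit and red for an adjusted p under 0.05. The 2 subsystems in red in the oligosaccharide group, trehalose and 2-O-alpha-mannosyl-D-glycerate, are called in both panels, at -0.51 and -0.93 in females and at -0.54 and -0.95 in males.

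2-O-alpha-mannosyl-D-glycerate utilization had the smallest adjusted p of the members between the strains. Mannosylglycerate is a solute that some heat-loving microbes build up against stress, and Escherichia coli takes it up through a phosphotransferase permease and splits it with a mannosidase. SHR females had 59.6 (lowest), 74.2 (median) and 87.7 (highest) normalized reads, against 97.3, 139 and 195 in WKY females. No SHR female reached the lowest WKY female. SHR males had 63.5, 75.2 and 112, against 101, 147 and 276 in WKY males, where 6 of 7 SHR males lay below every WKY male. The subsystem fell by 0.93 ± 0.16 (SE) on the log2 scale in females (limma adjusted p 0.000474), by 0.95 ± 0.19 in males (adjusted p 0.00844) and by 0.94 ± 0.12 averaged over the sexes (adjusted p 6e-06), which is 1.92-fold. It rested on 25 to 96 reads per SHR female library and 122 to 239 per WKY female library. The call averaged over the sexes held in all 33 fits that left out 1 rat and in the 10 other alternatives, among them the fit without the 3 shallowest libraries (-0.93) and the fit on thinned reads (-1.01). In males it was lost when only the 2 male groups were fitted (adjusted p 0.137), with the same fold change. The authors' deposited tables list it as well, with adjusted p 1.9e-08 for females and 0.00219 for males.

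Trehalose Uptake and Utilization serves a disaccharide of glucose that bacteria and fungi use as stress protectant and that gut bacteria import and cleave. Its level was 146, 165 and 202 normalized reads (lowest, median and highest) in SHR females, against 187, 246 and 304 in WKY females. Here 9 of 10 SHR females lay below every WKY female. The values were 166, 192 and 214 in SHR males, against 183, 278 and 448 in WKY males, so the male groups overlapped and WKY males were more spread. Trehalose fell by 0.51 ± 0.12 in females (limma adjusted p 0.00817), by 0.54 ± 0.14 in males (adjusted p 0.0319) and by 0.53 ± 0.09 averaged over the sexes (adjusted p 0.00024). The averaged call held in the same 33 and 10 alternative fits. In males the call was lost on leaving out any of 6 rats, SHR males 1, 2, 5 and 7 and WKY males 5 and 6, with adjusted p 0.0525 to 0.0905, and also when only the 2 male groups were fitted (0.218). On thinned reads it was lost in females (adjusted p 0.0673) and in males (0.267).

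Sucrose utilization, for the table sugar that plants make, stood at 570.4, 658 and 984 normalized reads in SHR females, against 606, 734 and 933 in WKY females. Males showed more of a gap, with 624, 763 and 906 in SHR males against 803, 932 and 1208 in WKY males, where 5 of 7 SHR males lay below every WKY male. Sucrose fell by 0.23 ± 0.07 averaged over the sexes (limma adjusted p 0.0247), with log2 differences of -0.13 ± 0.10 in females (adjusted p 0.443) and -0.34 ± 0.11 in males (adjusted p 0.0781). It was the weakest of the calls among oligosaccharides, lost without WKY male 5 (adjusted p 0.056) or 6 (0.0548), with a centred log-ratio scaling (0.106) and on thinned reads (0.0564).

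The most abundant oligosaccharide systems stayed close between the strains. Maltose and Maltodextrin Utilization had 2953, 3296 and 3577 normalized reads in SHR females, against 2786, 3359.6 and 3618 in WKY females, a log2 difference of -0.01 with a 95% interval of -0.11 to 0.09. In males it had 3199, 3348 and 3655 in SHR, against 3323, 3665 and 4374 in WKY (-0.14, interval -0.26 to -0.02, limma adjusted p 0.171). Lactose and Galactose Uptake and Utilization, for milk sugar and its galactose part, had 1689.7, 1886 and 2011 in SHR females, against 1627, 2052 and 2255 in WKY females. In males it had 1863, 1935 and 2358 in SHR, against 1982, 2072 and 2575 in WKY, and the difference averaged over the sexes was -0.10 (95% interval -0.19 to -0.01, adjusted p 0.104). Neither system passed the limma test in either sex, while the authors' deposited table of a general model lists maltose (adjusted p 0.00754).

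The narrower Lactose utilization subsystem varied about as much within groups (SD 221 to 386) as over the whole study (SD 294). It had 902, 1615 and 1829 normalized reads in SHR females, against 1054, 1343 and 2049 in WKY females. In males it had 1103, 1245 and 1820.3 in SHR, against 1093, 1283 and 1689 in WKY. The averaged difference was 0.01 on the log2 scale, with a 95% interval of -0.20 to 0.22. Melibiose Utilization, for a disaccharide of galactose and glucose, had 343, 513 and 589 in SHR females, against 409.9, 441 and 549 in WKY females. In males it had 443, 482 and 592 in SHR, against 439, 461 and 781 in WKY, and the averaged difference was 0.01 (interval -0.14 to 0.17). For both subsystems the groups overlapped over nearly their whole range.

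Among the monosaccharides, Fructose utilization, which feeds the sugar of fruit and of sucrose into glycolysis, was lower in SHR. SHR females had 383, 434 and 553 normalized reads, against 424, 541 and 729 in WKY females. SHR males had 431, 526.5 and 575, against 449, 690.1 and 859 in WKY males. In females 9 of 10 SHR lay below the WKY median and in males 7 of 7, although the ranges overlapped. Fructose fell by 0.34 ± 0.09 averaged over the sexes (limma adjusted p 0.00737), a call that held in every alternative fit, while neither sex passed alone (-0.35 ± 0.12, adjusted p 0.0559 in females, and -0.33 ± 0.13, adjusted p 0.149 in males). L-rhamnose utilization, for a deoxy sugar of pectin and of bacterial surfaces, had 264, 780.1 and 908 in SHR females, against 317, 449.7 and 1138 in WKY females. Males had 263, 399 and 896 in SHR, against 265, 398 and 724 in WKY. Rats of the same group thus differed several-fold, and the averaged difference of 0.10 had an interval of -0.37 to 0.57. D-ribose utilization, for the pentose of nucleosides, averaged 408 ± 112 in SHR females and 399 ± 107 in WKY females, and 408 ± 111 in SHR males and 525.8 ± 77.2 in WKY males, and did not pass.

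The polyols were the group in which both directions occurred. Glycerol and Glycerol-3-phosphate Uptake and Utilization, for the backbone of fats and phospholipids, had 387, 417 and 659 normalized reads in SHR females, against 441, 559 and 1092 in WKY females. SHR males had 386, 534 and 808, against 537, 650.2 and 1471 in WKY males. In females 7 of 10 SHR lay below every WKY, and in males 4 of 7. It fell by 0.52 ± 0.14 averaged over the sexes (limma adjusted p 0.00895) and held in every alternative fit, with -0.46 ± 0.18 in females (adjusted p 0.101) and -0.58 ± 0.21 in males (adjusted p 0.116). D-Sorbitol(D-Glucitol) and L-Sorbose Utilization, for a sugar alcohol and its ketose, went the other way. It had 12.3, 37.9 and 54.9 in SHR females, against 13.4, 24.4 and 31.9 in WKY females, and 7 of 10 SHR females lay above every WKY female. SHR males had 23.96, 40.2 and 126, against 9.27, 26.3 and 38.3 in WKY males, with SHR males 3 and 4 far above the rest at 106.9 and 125.9. Sorbitol rose by 0.88 ± 0.23 averaged over the sexes (adjusted p 0.00737), which is 1.83-fold and held in every alternative fit. The call rested on 4 to 69 reads per library, and neither sex passed alone (0.61 ± 0.30, adjusted p 0.194 in females, and 1.14 ± 0.34, adjusted p 0.0582 in males).

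Mannitol Utilization averaged 153 ± 29.8 normalized reads in SHR females and 154 ± 63.7 in WKY females. In males it averaged 193 ± 65.0 in SHR and 282 ± 168 in WKY, where 1 rat reached 543. D-Tagatose and Galactitol Utilization, for a ketohexose and the sugar alcohol of galactose, varied least of the polyols, at 216 over all rats with an SD of 14.5% of the mean. Erythritol utilization had 5 reads in all libraries together.

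The sugar acids differed more between rats of a group than between strains. D-Galacturonate and D-Glucuronate Utilization had 1104, 1965 and 2558 normalized reads in SHR females, against 1177, 1558 and 2819 in WKY females. In males it had 1354, 1818 and 2289 in SHR, against 984, 1564 and 2204 in WKY. The averaged difference was 0.18 with an interval of -0.11 to 0.465 (limma adjusted p 0.406). 2-Ketogluconate Utilization had 5 reads in all.

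Of the other subsystems with a carbohydrate in the name, Sugar utilization in Thermotogales, named after an order of heat-loving bacteria, rose in SHR. It had 76.7, 143 and 199 normalized reads in SHR females, against 67.8, 109 and 152 in WKY females. SHR males had 84.2, 112 and 165, against 51.1, 97.8 and 144 in WKY males. The averaged rise was 0.41 ± 0.14 (limma adjusted p 0.0399), and it was the least stable call of the set, lost in 13 of 33 fits that left out 1 rat (adjusted p up to 0.0826) and on thinned reads (0.104). The clusters known only as uncharacterized carbohydrate systems, named Ydj, Yeg and yphABCDEFG, averaged 57.8, 4.99 and 92.6 over all rats. Ydj averaged 79.3 ± 57.7 in SHR females and 40.1 ± 14.3 in WKY females, with SHR females spread between 24.5 and 169, and did not pass (adjusted p 0.145). The subsystems for beta-glucuronide and D-glucosaminate had 11 and 7 reads in all. D-glucosaminate had 0 reads in SHR and 7 in WKY, of which 6 lay in males. A count of 0 allows up to 1.22 per 1000000 function reads in SHR females and up to 1.43 in SHR males, taking 3 reads over a group as the limit.

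Among the members that name no sugar, p-Aminobenzoyl-Glutamate Utilization, which handles a breakdown product of folate, was lower in SHR females. They had 10.4, 15.2 and 24.01 normalized reads, against 20.2, 28.7 and 38.4 in WKY females, and 8 of 10 SHR females lay below every WKY female. SHR males had 13.7, 23.96 and 37.6, against 20.5, 25.4 and 76.6 in WKY males. It fell by 0.86 ± 0.22 in females (limma adjusted p 0.0138) and by 0.66 ± 0.17 averaged over the sexes (adjusted p 0.00737), with -0.46 ± 0.26 in males (adjusted p 0.329). The libraries held 6 to 78 reads of it, and on thinned reads both calls were lost (adjusted p 0.241 in females and 0.414 averaged). Putrescine utilization pathways, for a polyamine, had 0, 2.47 and 12.3 in SHR females, against 1.91, 4.78 and 11.6 in WKY females. SHR males had 0, 2.01 and 5.13, against 2.99, 7.17 and 13.5 in WKY males. Putrescine fell by 1.10 ± 0.30 averaged over the sexes (adjusted p 0.0116) on 0 to 19 reads per library.

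Phosphonoalanine utilization, for an amino acid with a bond between carbon and phosphorus, was called in females on 9 reads. No SHR female had a read among 2464876 function reads, while 5 of 9 WKY females had 9 among 3432877, which is 2.62 per 1000000 function reads with an exact 95% interval of 1.20 to 4.98. A count of 0 in SHR females allows up to 1.22 per 1000000, which lies within the interval of WKY females, so no fold is given. The limma call (adjusted p 0.0166) was lost on thinned reads (0.259), with the 2 female groups alone (0.0863) and with edgeR (0.0892), and no male of either strain had a read. These limits and intervals cover counting error only, since reads of 1 library are not independent molecules.

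**Figure D4:**
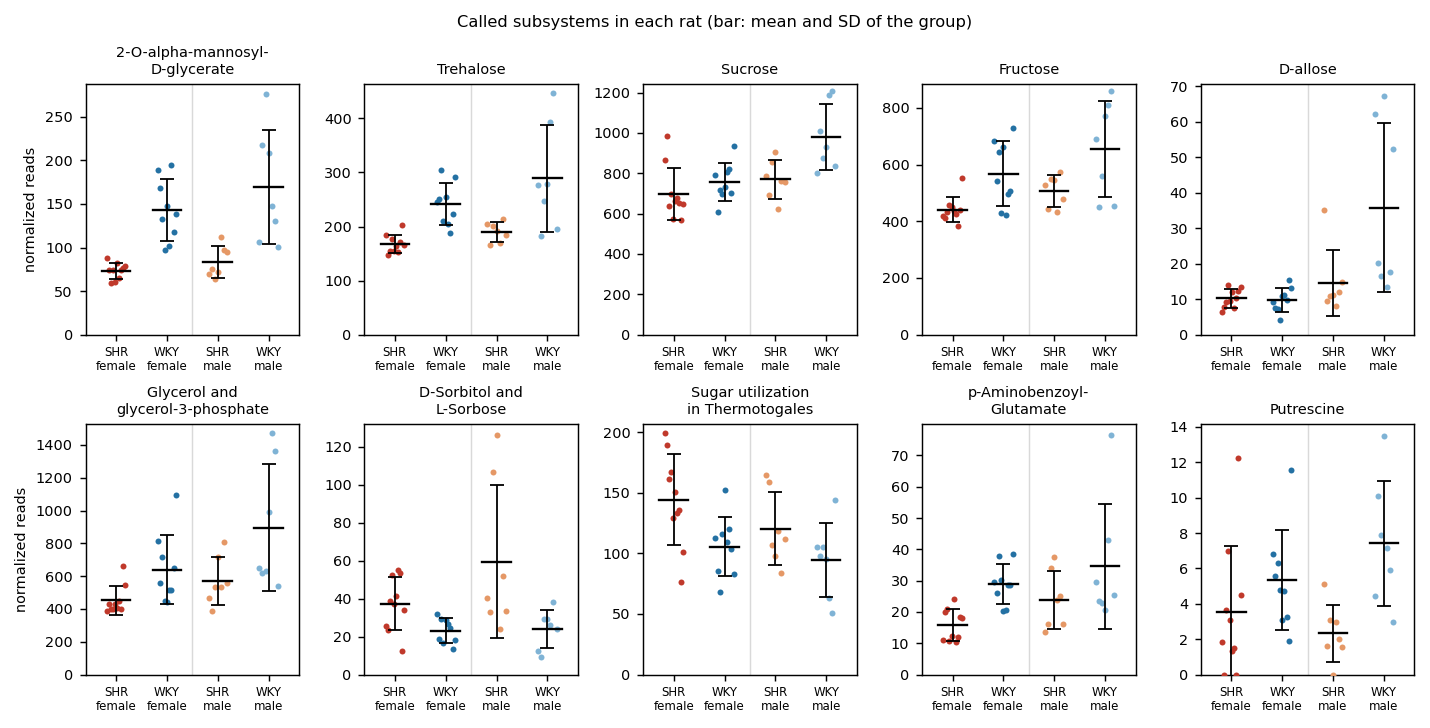
Normalized reads per rat for the 10 subsystems called in at least 1 comparison, other than Phosphonoalanine, with a point for each rat and a bar for the group's mean and SD. The 10 SHR females lie between 59.6 and 87.7 for 2-O-alpha-mannosyl-D-glycerate, below all 9 WKY females at 97.3 to 195, and 3 of 7 WKY males stand above 50 for D-allose.

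The most abundant member without a sugar in its name, Heme, hemin uptake and utilization systems in GramPositives, through which bacteria take iron from heme, had 299, 373 and 638 normalized reads in SHR females, against 285, 435 and 787 in WKY females. In males it had 289.7, 434 and 624.7 in SHR, against 364, 604 and 1043 in WKY. The averaged difference was -0.38 with a 95% interval of -0.69 to -0.08, which did not pass (limma adjusted p 0.0742). Purine Utilization averaged 362 ± 55.4 in SHR females and 416 ± 108 in WKY females, and 409.6 ± 56.3 in SHR males and 578 ± 206 in WKY males (averaged -0.30, adjusted p 0.0544). Glycine and Serine Utilization averaged 355 ± 56.4 in SHR females and 451 ± 92.7 in WKY females, and all 10 SHR females lay below the WKY female median (adjusted p 0.0885).

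Over all rats, Proline, 4-hydroxyproline uptake and utilization averaged 305 normalized reads, Alkylphosphonate utilization 88.2, Ethanolamine utilization 63.0 and Xanthosine utilization (xap region) 28.6. Allantoin Utilization, for a breakdown product of purines, averaged 6.86, Pyrimidine utilization 6.14, Taurine Utilization 4.70 and Utilization of glutathione as a sulphur source 4.41. Tagatose utilization averaged 7.88. The rest were at the edge of detection. They were the carbohydrate cluster containing Fructose-bisphosphate aldolase with 43 reads in all, the Fructoselysine (Amadori product) utilization pathway with 30, Gallic acid utilization with 8, Acyclic terpenes utilization with 6 and Tricarballylate Utilization with 1. None of these passed in any of the 6 comparisons.

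D-allose utilization, for a rare isomer of glucose, was the member that limma called between the sexes of WKY, although their ranges overlapped. WKY females had 3.99, 9.78 and 15.3 normalized reads, against 13.5, 20.2 and 67.3 in WKY males. Of the WKY males, 3 lay between 52.3 and 67.3 and the other 4 between 13.5 and 20.2, and 6 of 7 were above the highest WKY female. SHR females had 6.40, 9.84 and 13.9, against 7.99, 11.3 and 35.0 in SHR males, where only SHR male 1 stood high. Within WKY the level fell by 1.57 ± 0.31 in females, which is 2.96-fold (limma adjusted p 0.00883, 9 of 9 females below the male median). The call held in all 33 fits that left out 1 rat and was lost when only the 2 WKY groups were fitted (adjusted p 0.0812). In males the strains differed by -1.12 ± 0.33 (SHR minus WKY, adjusted p 0.0533), and the test of whether the strain difference depended on sex gave 1.22 ± 0.43 (adjusted p 0.426).

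By limma D-allose was the only one of the 44 called by sex in WKY, while edgeR called 4, DESeq2 5 and limma with a minimum mean of 10 or a centred log-ratio 3 each. Limma called 0.662% of all subsystems, all of them lower in females (0.662% lower and 0.0% higher). The median log2 fold change of females minus males in WKY was -0.13 over the members and 0.00 over all subsystems. Sucrose (-0.36 ± 0.10, adjusted p 0.0631), maltose (-0.19 ± 0.06, adjusted p 0.0631) and mannitol (-0.75 ± 0.25, adjusted p 0.0899) lay on the same side without passing. The count went up to 7 without WKY male 7 and to 6 without WKY female 9. For these other fits and methods the share of all subsystems called was not computed. In SHR no member passed between the sexes (0 of 44 by limma, edgeR and DESeq2, background 0.0% by limma). At an unadjusted p under 0.05 limma gave 1 of 44 members and 48 of all 1057 subsystems.

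Subsystems whose names hold words of central carbon pathways, such as pyruvate, glycolysis or fermentation, were set beside the members. Of these 21, 8 were called averaged over the sexes (38.1%, beside 17.2% of all subsystems), 4 higher and 4 lower in SHR, with a median log2 fold change of 0.00. Those that rose were both lysine fermentation subsystems, Acetyl-CoA fermentation to Butyrate and Phosphoenolpyruvate phosphomutase, an enzyme of phosphonate synthesis. Those that fell were the Pentose phosphate pathway, a pyruvate pathway to acetyl-CoA, Pyruvate Alanine Serine Interconversions and Glycerol fermentation to 1,3-propanediol. The last uses the same substrate as the glycerol subsystem and differed between the strains by -1.43 ± 0.31 in males (limma adjusted p 0.00938) and by -0.32 ± 0.26 in females (adjusted p 0.493). It was also lower in WKY females than in WKY males (-1.29 ± 0.29, adjusted p 0.017), and the test of strain by sex gave an adjusted p of 0.431. Of 6 subsystems with words of sugar uptake in the name, the 5 that name a phosphotransferase system or a sugar transporter did not pass averaged over the sexes (adjusted p 0.0573 to 0.68). The other, EC 2.7.1.- Phosphotransferases with an alcohol group as acceptor, is the enzyme class of kinases such as glycerol kinase, and fell by 0.64 ± 0.14 (adjusted p 0.00238). No difference between these lists was tested.

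Which bacteria the reads moved with was asked across rats, after the mean of each group had been subtracted from both measures. The 23 members with a mean of at least 50 normalized reads were set against the shares of 9 genera, which gave 207 pairs. With permutation within groups and Benjamini-Hochberg adjustment over all pairs, 93 passed for both Pearson's r and Spearman's rho, 46 of them above 0 and 47 below. Genera and functions came from the same libraries, and the shares of genera depend on each other, so the pairs are not independent. Romboutsia and Muribaculum each passed with 13 members, Escherichia with 1. The other subsystems were not set against the genera, so these counts have no background and are not particular to the members.

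Heme uptake in GramPositives followed Romboutsia, a genus of gram-positive Clostridia, with r = 0.91 and rho = 0.92 (n = 33, permutation adjusted p 6.47e-05, from the smallest p that the permutations can give). Without the 2 rats farthest from the median r was 0.90. It was 0.96 within SHR females, 0.94 within WKY females, 0.83 within SHR males and 0.94 within WKY males. L-rhamnose followed Bacteroides, known for degrading plant and host glycans, with r = 0.89 and rho = 0.86, and 0.92 without the 2 rats. Galacturonate followed Muribaculum, a genus of rodent gut Bacteroidales, with r = 0.83 and rho = 0.88, and 0.86 without the 2 rats. It followed Bacteroides nearly as closely, with r = 0.82 and rho = 0.79. Glycerol followed Lactobacillus with r = 0.81 and rho = 0.86, and 0.83 without the 2 rats. With Romboutsia it had r = 0.83 and rho = 0.77, and 0.79 without the 2 rats, so neither genus is singled out. In these pairs, r lay above 0 within each of the 4 groups.

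The members called between the strains differed in how many genera they passed with, 8 for trehalose and fructose against 1 for mannosylglycerate and sucrose. Glycerol and Sugar utilization in Thermotogales each passed with several. Thermotogales, higher in SHR, passed below 0 with Romboutsia (r = -0.76) and Lactobacillus (-0.74), and above 0 with Muribaculum (0.62) and Bacteroides (0.60), among others. Sorbitol, p-aminobenzoyl-glutamate, putrescine and phosphonoalanine, also called, had means under 50 and were not set against any genus. Trehalose went against Muribaculum, with r = -0.87 and rho = -0.81 (-0.83 without the 2 rats), and with Bifidobacterium, with r = 0.74 and rho = 0.59 (0.69 without them). With Bifidobacterium r was only 0.33 within SHR females and 0.21 within WKY females, against 0.83 within SHR males and 0.92 within WKY males. Fructose went against Muribaculum as well, with r = -0.87 and rho = -0.83, but r was only -0.28 within SHR females. Mannosylglycerate passed with Akkermansia alone among the 9 genera (r = -0.45, rho = -0.44, permutation adjusted p 0.0424), and without the 2 farthest rats r was -0.40 with an adjusted p of 0.0942. With members scaled to equal totals that pair did not pass either (adjusted p 0.0852). The single pair of sucrose, with Parabacteroides, rested on the 2 farthest rats, since r was -0.28 and the adjusted p 0.286 without them. D-ribose and Escherichia (r = 0.50, rho = 0.41) rested on such rats too, with r = 0.30 (adjusted p 0.147) without them.

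Lactobacillus took 3.41% ± 3.87 of reads in SHR females and 8.66% ± 6.85 in WKY females, and 5.48% ± 3.85 in SHR males and 10.9% ± 7.92 in WKY males. Limosilactobacillus took 1.52% in SHR females and 3.43% in WKY females, and 1.35% in SHR males and 5.52% in WKY males. Parabacteroides ran the other way, with 2.75% ± 1.81 in SHR females and 0.503% ± 0.266 in WKY females, and 2.69% ± 3.55 in SHR males and 0.282% ± 0.197 in WKY males. Of the members that were lower in SHR, glycerol, trehalose and fructose passed with Lactobacillus above 0 (r = 0.81, 0.44 and 0.54) and with Parabacteroides below 0 (r = -0.64, -0.71 and -0.73). Sucrose passed with Parabacteroides (r = -0.43) and not with Lactobacillus (r = -0.05, permutation adjusted p 0.842). Mannosylglycerate passed with neither, at r = 0.16 with Lactobacillus (permutation adjusted p 0.484) and 0.02 with Parabacteroides (0.932). Muribaculum, with which trehalose and fructose had r below 0, took 8.05% ± 2.69 in SHR females and 8.41% ± 4.61 in WKY females. In males it took 6.02% ± 2.28 in SHR and 5.80% ± 5.93 in WKY. Akkermansia, with which mannosylglycerate had r below 0, had a median of 0.308% in SHR females and 1.71% in WKY females. Its median was 0.163% in SHR males and 0.532% in WKY males, lower in SHR like that of mannosylglycerate. The part of any genus in the strain differences was not tested.

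**Figure D5:**
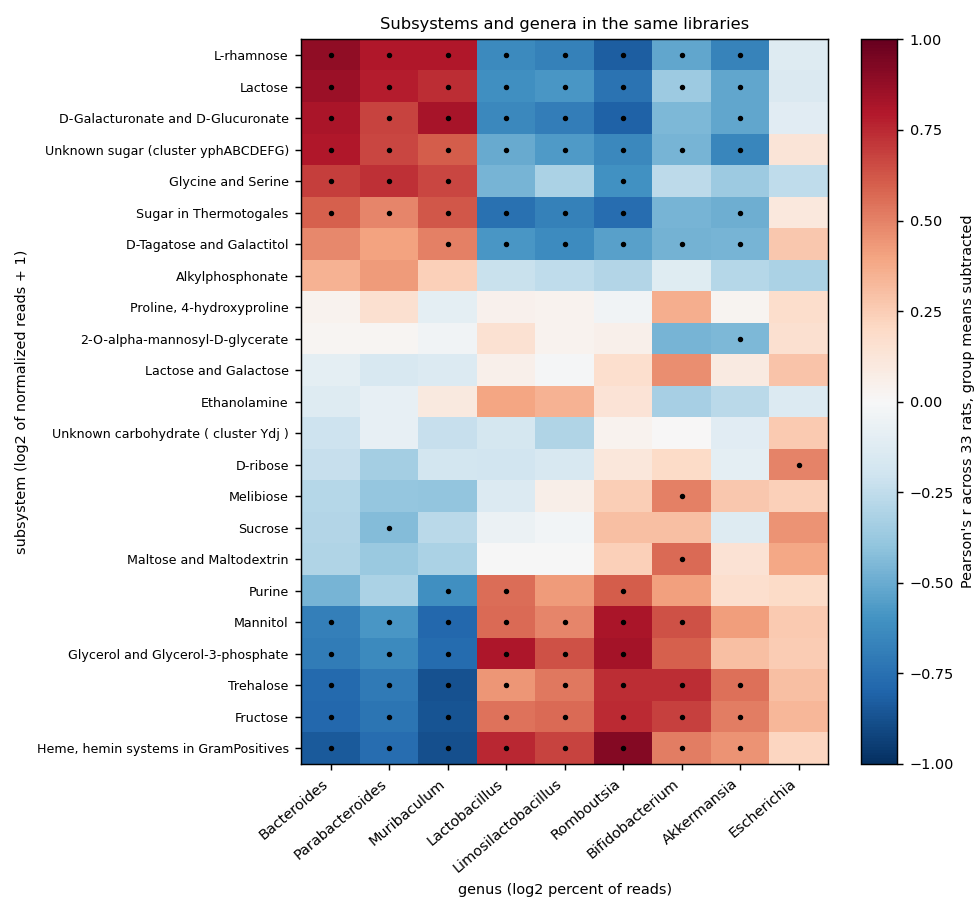
Pearson's r between 23 subsystems (rows) and 9 genera (columns) across 33 rats after group means were subtracted, with colour for r and a dot where Pearson's and Spearman's adjusted p were both under 0.05. Heme uptake with Romboutsia (0.91) and L-rhamnose with Bacteroides (0.89) stand highest, and the row of mannosylglycerate has a single dot, with Akkermansia (-0.45).

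The authors' deposited tables of differing functions hold members of this set in each of their models. For females 4 of 85 listed functions were members, mannosylglycerate (adjusted p 1.9e-08), trehalose (6.24e-06), p-aminobenzoyl-glutamate (0.000453) and fructose (0.00602). For males 1 of 16 was a member, mannosylglycerate. A table of a general model, whose comparison is not stated in the sources used here, listed 13 members among 148 functions. Their adjusted p lay between 2.64e-10 for mannosylglycerate and 0.00968 for ethanolamine. The table also listed D-allose (4.7e-07), purine (0.00225), maltose (0.00754), mannitol (0.00771) and phosphonoalanine (0.00853). Like ethanolamine, these were not called by limma averaged over the sexes, which need not be the same comparison. The fold changes in the authors' deposited tables carry the opposite sign to SHR minus WKY for all 85 functions of females and all 16 of males. In the general model 139 functions had the opposite sign and 9 the same, so most carried the sign of WKY over SHR. For mannosylglycerate its deposited 1.21 was near the log2 ratio of the mean of WKY males (170) to that of SHR females (73.4). Such a comparison would hold a sex difference beside the strain difference. Only adjusted p are given for the other members.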

How the data were processed

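DNA of cecal content was extracted and shotgun sequenced, 1 library per rat, 33 in all. Per the submitters' processing notes, reads were checked with FastQC 0.11.5, trimmed with cutadapt 2.6 and Trimmomatic 0.36, and the rat build Rnor_6.0 and DESeq2 are named. The tool that assigned functions and genera is not given in the sources used here. The deposited signal per subsystem is a read number divided by 1 size factor per library: dividing by the worth of 1 read gave whole reads (within 0.01) for 100% of values. The deposited genus table holds percent of reads, per its values. The authors' deposited model tables hold a log2 fold change and an adjusted p-value per function.

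From these, log2(normalized reads + 1) of all 1057 subsystems in all 33 rats was fitted with limma 3.58.1 (4 group means, trend and robust), 2-sided, with Benjamini-Hochberg adjustment over all subsystems and calls at an adjusted p under 0.05. Because of the added 1, fold changes of low subsystems are understated. Steps were tested on simulated data. Alternatives used pseudocounts of 0.5 and 10, a minimum mean of 10, equal totals, a centred log-ratio, thinning to 95952 reads, edgeR 4.0.16 and DESeq2 1.42.0 on recovered reads, only the 2 groups compared, plain variance moderation, and libraries left out. Software was R 4.3.3 and Python 3.11.15. Tables were handled with pandas 2.3.3 and numpy 2.4.6, and permutations used numpy. Ranks and exact intervals used scipy 1.17.1, and plots were drawn with matplotlib 3.10.9. Correlations used 100000 permutations within groups.

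The members, substrate groups and comparison lists were chosen with earlier results of these data known. Every member is named with its level, and full values are given for each called member and for the 10 with the highest mean. Substrate groups go by the first fitting word in the name, which puts D-Tagatose and Galactitol among polyols and Fructoselysine among monosaccharides. The 6 further carbohydrate members were set apart after the names, not the values, had been read. Ascorbate counted as a vitamin name. A planned list of all carbohydrate subsystems was not used, since the table has 1 annotation column. Libraries held 95952 to 489862 function reads.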

Additional observations from a re-analysis of the deposited data

Results flagged for a closer look

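A rat far from the others of its group was looked for in 68 groups of rats, over the members given in full except Phosphonoalanine, and 4 were found. Chance alone gives about 1 in 20 groups. For Fructose utilization SHR female 10 had 553 normalized reads, the highest of its group by 0.522 of the range on the log2 scale. For D-allose utilization SHR male 1 had 35.0, the highest by 0.599 of the range. For Maltose and Maltodextrin Utilization WKY female 2 had 2786, the lowest by 0.509 of the range. For Melibiose Utilization SHR male 3 had 592, the highest by 0.571 of the range. No cause was tested. Leaving out any of these rats ended neither the averaged call of fructose nor the call of D-allose between WKY females and males.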

How the results depend on the processing

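No called member changed direction in a comparison that called it, under the alternatives run. The median log2 fold change of all subsystems averaged over the sexes, -0.02, was 0.05 with the centred log-ratio and 0.02 with DESeq2, and in females it was -0.04 against 0.04 with the centred log-ratio. The counts under the alternatives that follow have no share of all subsystems beside them, so whether the members or all calls moved was not tested. Averaged over the sexes 9 members were called, and 8 to 12 when 1 rat was left out. In females 4 were called, and 1 on thinned reads, 11 without the 3 shallowest libraries, 8 with DESeq2 and 4 to 6 without any 1 rat. In males 2 were called, and 4 with a minimum mean of 10, 0 with only the 2 male groups fitted, 4 with edgeR, 7 with DESeq2 and 1 to 8 without any 1 rat (1 without SHR male 2, SHR male 7 or WKY male 6, 4 without WKY male 1 or 3, 8 without WKY male 7). Between the sexes of WKY 1 was called, and 3 with a minimum mean of 10, 3 with the centred log-ratio, 0 with only the 2 WKY groups, 4 with edgeR, 5 with DESeq2 and 1 to 7 without any 1 rat (3 without WKY female 1 or WKY male 1, 6 without WKY female 9, 7 without WKY male 7). The cause was not tested. The test of strain by sex and that between the sexes of SHR called 0 throughout. Of the genus pairs, 101 passed for Pearson's r, 112 with members scaled to equal totals and 89 without the 2 farthest rats. Depth limits the 17 members under 10 normalized reads, which rest on few reads per library. No paired analysis was possible because the labels give the groups no shared replicate numbers.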
